A study of Mus musculus with 2 samples.

Results

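The cell cycle and mitosis genes described here are 40 genes chosen by symbol from the names of the proteins they encode. They cover the cyclins and kinases of G1, the proteins that copy DNA in S phase, the proteins of G2 and mitosis, and inhibitors of the cyclin-dependent kinases. All 40 were found in both gene tables, among 43346 genes in all, and 31 of them reached a mean of at least 1 TPM, a length-scaled share of all transcripts. RNA was measured in 2 libraries of mammary gland from adult C57BL/6J mice aged 8 weeks, males and females pooled, which the labels call biological replicates 2 and 1. Each library was made from polyadenylated RNA longer than 200 nt, depleted of ribosomal RNA, with spike-in RNAs, and read in stranded pairs of 76 nt. The labels give no treatment, no genotype beyond the strain and no reproductive state, and both libraries belong to 1 group. No p-value is therefore given, and each difference below is replicate 2 relative to replicate 1.

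A dividing cell passes from G1 through DNA synthesis in S phase to G2 and mitosis. D-type cyclins act in G1 and lead to phosphorylation of the retinoblastoma protein, which frees E2F factors to switch on the genes of DNA replication, and a later wave of genes under B-MYB and FOXM1 serves mitosis. In the mammary gland, ducts grow at puberty and alveoli expand in pregnancy, and much of the adult epithelium between those times is not dividing.

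The promoters of the 2 waves are shown first, since they differ in sequence elements that were no part of the choice of genes. RefSeq windows on GRCm38.p6, the patched form of mm10, reached from 250 bases before to 50 bases after each start site and were available for 31 of the 40 genes. The windows were searched on both strands for 3 elements. The E2F element was any of TTTCCCGC, TTTCGCGC, TTTGCCGC and TTTGGCGC. The cell cycle genes homology region (CHR), an element bound by the DREAM and MYB-MuvB complexes, was TTTGAA or TTCGAA, and the NF-Y element was CCAAT. The E2F letters occurred in 4 of 8 S phase genes (50%) and in 1 of 15 G2 and M phase genes (6.67%), with 2.60% of all 27025 genes holding them. The CHR letters ran the other way, with 2 of 8 S phase genes (25%) and 12 of 15 G2 and M phase genes (80%), against 21.7% of all genes. NF-Y letters were common to both, in 7 of 8 S phase genes and 14 of 15 G2 and M phase genes, against 41.1% of all genes. Adjacent or overlapping E2F letters on opposite strands were counted as separate matches, but each gene was counted once. A match is a stretch of letters and not a measured binding site.

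The windows below belong to genes on which the results turn. Mcm5 (chr8:75109259-75109558, plus strand) and Cdk1 (chr10:69352863-69353162, minus strand) show the elements of the S phase and the mitotic wave, and Rrm2 (chr12:24708004-24708303, plus strand), Plk1 (chr7:122159185-122159484, plus strand) and Cdkn1b (chr6:134920151-134920450, plus strand) had count ratios wholly beyond 2-fold between the libraries. Aurkb shared that property and had no window in the RefSeq table used. Each is written 5′ to 3′ on the strand of its gene, and capitals mark matches to any of the 3 elements.
Mcm5: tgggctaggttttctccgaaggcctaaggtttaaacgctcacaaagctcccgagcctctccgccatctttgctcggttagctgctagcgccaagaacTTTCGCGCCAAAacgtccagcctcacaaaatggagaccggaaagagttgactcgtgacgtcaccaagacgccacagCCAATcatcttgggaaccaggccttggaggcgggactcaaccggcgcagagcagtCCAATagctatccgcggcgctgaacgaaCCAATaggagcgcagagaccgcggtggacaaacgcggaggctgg
Rrm2: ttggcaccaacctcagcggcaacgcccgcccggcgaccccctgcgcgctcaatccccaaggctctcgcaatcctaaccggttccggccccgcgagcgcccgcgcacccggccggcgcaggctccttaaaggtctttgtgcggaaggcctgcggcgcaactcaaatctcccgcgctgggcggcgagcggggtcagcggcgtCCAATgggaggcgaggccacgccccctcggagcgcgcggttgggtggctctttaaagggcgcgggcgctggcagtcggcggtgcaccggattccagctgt
Cdk1: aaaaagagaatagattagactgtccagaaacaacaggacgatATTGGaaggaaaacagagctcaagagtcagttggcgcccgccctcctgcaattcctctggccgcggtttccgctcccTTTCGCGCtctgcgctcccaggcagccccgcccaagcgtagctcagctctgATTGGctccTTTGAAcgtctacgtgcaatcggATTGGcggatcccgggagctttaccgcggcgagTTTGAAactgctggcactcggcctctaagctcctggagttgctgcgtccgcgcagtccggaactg
Plk1: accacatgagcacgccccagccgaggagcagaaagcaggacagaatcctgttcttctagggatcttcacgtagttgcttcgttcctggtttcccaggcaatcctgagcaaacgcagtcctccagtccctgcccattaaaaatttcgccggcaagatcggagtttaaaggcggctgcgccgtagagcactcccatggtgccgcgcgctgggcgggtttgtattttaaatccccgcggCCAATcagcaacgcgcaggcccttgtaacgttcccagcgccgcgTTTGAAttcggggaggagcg
Cdkn1b: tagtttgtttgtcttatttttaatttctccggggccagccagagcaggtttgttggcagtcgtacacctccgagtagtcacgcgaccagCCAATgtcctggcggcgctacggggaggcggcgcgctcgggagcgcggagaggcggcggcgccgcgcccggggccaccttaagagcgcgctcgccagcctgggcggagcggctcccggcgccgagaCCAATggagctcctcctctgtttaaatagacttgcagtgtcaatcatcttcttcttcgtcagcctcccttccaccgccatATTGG
Mcm5 held a pair of overlapping E2F matches and 3 NF-Y matches but no CHR match. Cdk1 held 2 CHR matches, of which one lay 15 bases before the start site, along with 3 NF-Y matches and the only E2F match among the G2 and M phase genes. Plk1 had a single CHR match, 30 bases after the start site, and Rrm2 and Cdkn1b had NF-Y matches only.

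**Figure D1:**
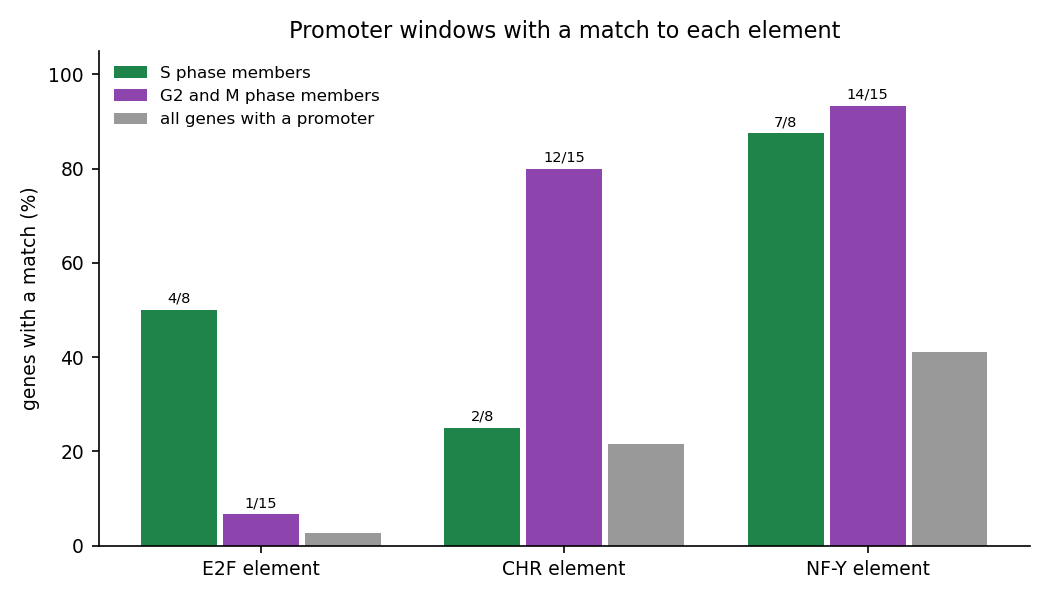
Percent of genes whose promoter window holds an E2F, CHR or NF-Y element, for S phase genes, G2 and M phase genes and all 27025 genes with a window; numbers over the bars give genes with a match out of genes with a window. The E2F element was found in 50% of S phase genes and 6.67% of G2 and M phase genes, and the CHR element in 25% and 80%.

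Replicate 2 held 42400470 expected counts over genes and replicate 1 held 56323489. The 40 genes received 44240 counts in replicate 2 and 44095 in replicate 1, and made up 0.0674% and 0.0458% of TPM in that order. The libraries differed in tissue make-up: summed TPM of 8 skeletal muscle genes was 13.3 in replicate 2 and 28320 in replicate 1, and the mitochondrial share of TPM was 4.28% in replicate 2 and 17.4% in replicate 1. All 10 luminal and all 8 myoepithelial markers were above 1 TPM in both, as were all 8 adipocyte markers. Luminal markers summed to 1790 TPM in replicate 2 and 979 in replicate 1, B cell markers to 763 TPM in replicate 2 and 441 in replicate 1, and T cell markers to 600 TPM in replicate 2 and 317 in replicate 1. Lower in replicate 2 were the sums of epidermis and hair follicle markers, at 23.5 TPM against 132 in replicate 1, of fibroblast markers, at 1666 TPM against 2169, and of myoepithelial markers, at 590 TPM against 709. The myoepithelial median ran the other way, at 41.4 TPM in replicate 2 and 35.7 in replicate 1, with 4 of 8 markers higher in replicate 2. So did the fibroblast median, at 346 and 299 TPM, with 2 of 6 markers higher in replicate 2. The part of these differences in the values below was not tested, and in bulk tissue more dividing cells and more RNA per dividing cell cannot be told apart.

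Summed level was highest for the G1 cyclins, lower for the S phase genes and lower again for the G2 and M phase genes, in both libraries. The 5 G1/S control genes summed to 32.9 ± 8.91 TPM and the 3 inhibitors to 93.6 ± 1.67 TPM (SD, n = 2). The 3 G1 cyclins summed to 241 ± 88.6 TPM (SD, n = 2), the 9 S phase genes to 126 ± 30.0 TPM and the 20 G2 and M phase genes to 71.7 ± 26.9 TPM. The median S phase gene stood at 9.44 TPM in replicate 2 and 8.81 TPM in replicate 1, and the median G2 and M phase gene at 2.06 and 1.83 TPM. The ratio of these medians was 4.59 in replicate 2 and 4.81 in replicate 1, whereas the ratio of summed TPM was 1.63 in replicate 2 and 1.99 in replicate 1. Of the 20 G2 and M phase genes, 15 lay below the lowest S phase gene in replicate 2 and 9 in replicate 1, where Rrm2 was at its lower level. No S phase gene fell below 1 TPM in either library, whereas 8 of the 40 genes were below 1 TPM in both, and all 8 belonged to G2 and M phase or G1/S control. The distance between S phase and G2 and M phase medians, S minus G2 and M, was 1.93 on the scale of log2(TPM + 1) of the replicate means.

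**Figure D2:**
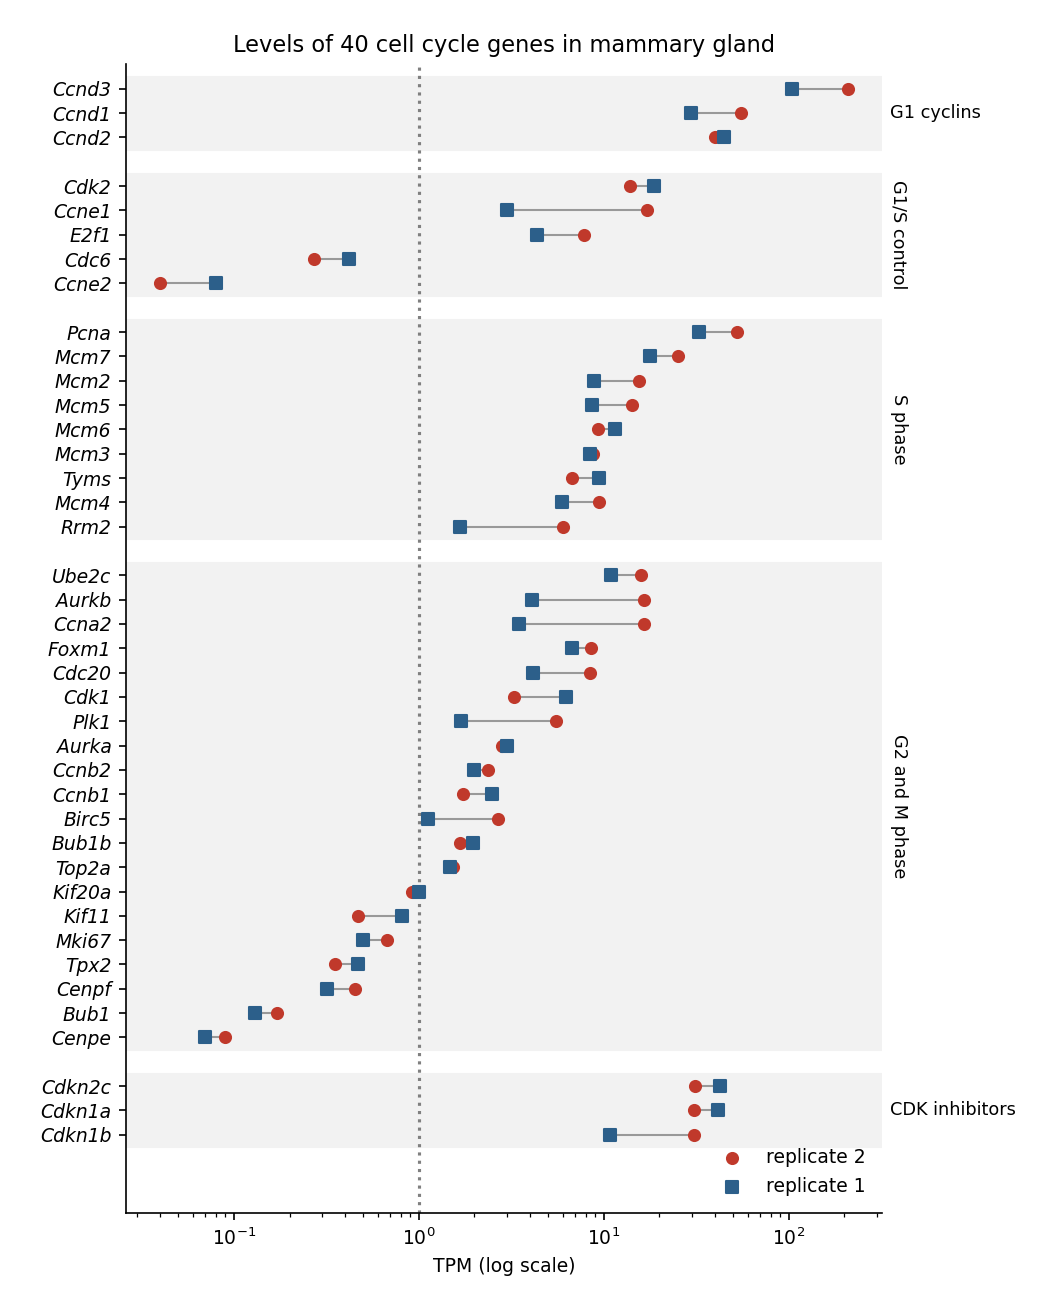
TPM of each of the 40 genes on a log axis, grouped by role, with a circle for replicate 2 and a square for replicate 1; the dotted line marks 1 TPM. All 9 S phase genes lie right of the line in both libraries, and the 20 G2 and M phase genes spread from 0.09 to 16.6 TPM in replicate 2 and from 0.07 to 11.0 TPM in replicate 1.

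Cyclin D3, the D-type cyclin prominent in lymphocytes and other differentiated cells, was the highest of the 40. Ccnd3 had 209 TPM in replicate 2 and 104 TPM in replicate 1. Ccnd1, the D-type cyclin that mammary alveolar growth depends on, had 55.5 TPM in replicate 2 and 29.8 TPM in replicate 1. Ccnd2 had 39.8 TPM in replicate 2 and 44.5 TPM in replicate 1. Ccnd3 was thus well above the other D-type cyclins in both libraries, while Ccnd1 and Ccnd2 exchanged places between them. By fragment counts scaled to the library total, Ccnd3 was higher in replicate 2 by 0.90 (95% counting interval 0.85 to 0.94) and Ccnd1 by 0.82 (0.77 to 0.88) on the log2 scale, both short of 2-fold. These intervals are exact and cover counting error only.

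The genes of the entry to S phase ranged from under 1 TPM to the level of the S phase genes. Cdk2, the kinase of cyclins E and A, had 13.9 TPM in replicate 2 and 18.8 TPM in replicate 1. E2f1, an activating E2F, had 7.78 TPM in replicate 2 and 4.36 TPM in replicate 1. Cdc6, which loads the replicative helicase onto origins, had only 27 fragments in replicate 2 and 50 in replicate 1, and Ccne2 only 3 and 9. Both E2f1 and Cdk2 differed beyond counting error, in opposite directions, and Cdc6 and Ccne2 could not be told apart between the libraries at this depth. The TPM difference of E2f1, at a GC content of 58.1%, fell from 0.71 to 0.08 with the GC trend described below removed. That of Cdk2 went from -0.40 to -0.24. Ccne1, the main cyclin E here, had 17.2 TPM in replicate 2 and 3.01 TPM in replicate 1.

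That gap in Ccne1 lay in a single short transcript. Ccne1-202, a 629 nt transcript annotated to nonsense-mediated decay, had 14.5 TPM in replicate 2 and 0 in replicate 1, from 184 fragments in replicate 2. The full-length coding transcript Ccne1-201 had 2.76 TPM in replicate 2 and 2.87 TPM in replicate 1. The coding transcript was therefore level between libraries while the gene's TPM was not, and the gene's fragment count, 336 in replicate 2 and 224 in replicate 1, gave a log2 ratio of 0.99 (0.75 to 1.25).

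Among S phase genes the MCM2–7 helicase, which unwinds DNA at the fork as a ring of 6 different subunits, was expressed within a narrow band. Mcm7 was the highest subunit, with 25.2 TPM in replicate 2 and 17.8 TPM in replicate 1. Mcm3 was the lowest subunit in replicate 2, at 8.72 TPM, and Mcm4 the lowest in replicate 1, at 5.94 TPM. The highest subunit exceeded the lowest by 2.89 times in replicate 2 and 2.99 times in replicate 1. Mcm2, Mcm4, Mcm5 and Mcm7 were higher in replicate 2 by both TPM and counts, with log2 count ratios of 0.59 to 0.74. Mcm3 was higher by counts, at 0.46 (0.29 to 0.62), and nearly level by TPM, with 8.72 TPM in replicate 2 and 8.48 TPM in replicate 1. Mcm6 ran the other way, with 9.35 TPM in replicate 2 and 11.6 TPM in replicate 1 and a log2 count ratio of -0.35 (-0.49 to -0.22). Mcm2, Mcm4 and Mcm5 each have a single annotated transcript, so no division of fragments between isoforms enters their values.

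The sliding clamp and the nucleotide-supply genes covered a wider range. Pcna, the clamp that holds the polymerases on DNA, had 52.4 TPM in replicate 2 and 32.8 TPM in replicate 1. Rrm2, the small subunit of ribonucleotide reductase that limits dNTP supply in S phase, had 6.05 TPM in replicate 2 and 1.68 TPM in replicate 1. Its 368 fragments in replicate 2 and 144 in replicate 1 gave a log2 ratio of 1.76 (1.48 to 2.05), the largest count ratio of the 40. In replicate 1 Rrm2 lay below the median G2 and M phase gene, which stood at 1.83 TPM. It was the only S phase gene with an interval wholly beyond 2-fold. Tyms, which makes thymidylate, had 6.72 TPM in replicate 2 and 9.43 TPM in replicate 1, and here too transcripts disagreed: the coding Tyms-201 had 1.61 TPM in replicate 2 and 0.55 TPM in replicate 1. A decay-annotated transcript, Tyms-205, took 4.42% of the gene in replicate 2 and 66.4% in replicate 1.

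The G2 and M phase genes spread widely in level. Aurkb, Ccna2 and Ube2c were above the rest by TPM in replicate 2, and Ube2c, Foxm1 and Cdk1 were so in replicate 1. Ube2c, the conjugating enzyme of the anaphase-promoting complex, had 15.9 TPM in replicate 2 and 11.0 TPM in replicate 1. Foxm1, the transcription factor of the mitotic wave, had 8.57 TPM in replicate 2 and 6.71 TPM in replicate 1. Cdc20, the activator of the anaphase-promoting complex, had 8.47 TPM in replicate 2 and 4.17 TPM in replicate 1. All 3 were higher in replicate 2 beyond counting error but not beyond 2-fold, with log2 count ratios of 0.26, 0.29 and 0.97.

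The mitotic kinases did not move together. Plk1, which drives mitotic entry and spindle assembly, had 5.50 TPM in replicate 2 and 1.70 TPM in replicate 1, from 336 and 146 fragments of its single transcript, a log2 ratio of 1.61 (1.33 to 1.90). Aurkb (mm10 chr11:69045647-69051664, plus strand), the kinase of the chromosomal passenger complex, had 16.5 TPM in replicate 2 and 4.09 TPM in replicate 1, with a log2 count ratio of 1.54 (1.31 to 1.78). Aurka, the kinase of centrosomes and spindle poles, had 2.83 TPM in replicate 2 and 2.98 TPM in replicate 1, with a log2 count ratio of 0.27 (-0.10 to 0.63). Aurkb and Plk1 were the 2 G2 and M phase genes with intervals wholly beyond 2-fold, and the interval of Aurka took in 0. Birc5, the survivin partner of Aurkb in the same complex, had 87 fragments in replicate 2 and 93 in replicate 1, a log2 ratio of 0.31 (-0.13 to 0.75).

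Part of the Aurkb difference lay in Aurkb-204, a 615 nt processed transcript with no coding sequence that had 8.05 TPM in replicate 2 and 0 in replicate 1. The coding Aurkb-201 still differed, with 6.46 TPM in replicate 2 and 2.46 TPM in replicate 1, and the authors' TPM intervals for it, 5.50 to 7.18 and 1.99 to 2.73, lay apart. Birc5 as a gene had 2.67 TPM in replicate 2 and 1.12 TPM in replicate 1, with the authors' intervals apart. Its coding transcripts ran in opposite directions: the shorter Birc5-201 had 2.31 TPM in replicate 2 and 0.56 TPM in replicate 1, and the longer Birc5-202 had 0.36 TPM in replicate 2 and 0.56 TPM in replicate 1.

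Cyclin A2, which serves both S phase and entry into mitosis, had most of its TPM in a non-coding transcript in 1 library. Ccna2 (mm10 chr3:36564865-36572150, minus strand) had 16.6 TPM in replicate 2 and 3.49 TPM in replicate 1. Ccna2-202, an 856 nt transcript that retains an intron, accounted for 13.6 TPM in replicate 2 and 0 in replicate 1. The coding Ccna2-201 had 2.94 TPM in replicate 2 and 2.02 TPM in replicate 1, from 248 and 239 fragments. The gene's fragment count gave a log2 ratio of 1.04 (0.84 to 1.25), so the difference was beyond counting error but its interval was not wholly beyond 2-fold.

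The kinase of mitosis and its B cyclins were low. Cdk1 had 96 fragments in replicate 2 and 126 in replicate 1, a log2 ratio of 0.02 (-0.38 to 0.41), although its TPM was 3.29 in replicate 2 and 6.24 in replicate 1. The retained-intron transcript Cdk1-203, 378 nt long, took 0% of the gene in replicate 2 and 60.7% in replicate 1 on 27.4 fragments, and the coding Cdk1-202 had 2.64 TPM in replicate 2 and 1.69 TPM in replicate 1. Ccnb1 had 1.73 TPM in replicate 2 and 2.50 TPM in replicate 1, with a log2 count ratio of -0.62 (-1.04 to -0.21). Ccnb2, with a single transcript, had 2.38 TPM in replicate 2 and 2.00 TPM in replicate 1, and its interval took in 0. Retained-intron transcripts held the larger part of the Ccnb1 value, and the coding Ccnb1-201 had 0.56 TPM in replicate 2 and 0.74 TPM in replicate 1, below Cdk1-202 in both. Neither cyclin B gene was called beyond 2-fold.

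The genes most used as markers of division were low in TPM. Mki67, the gene of the Ki-67 antigen, had 202 fragments in replicate 2 and 213 in replicate 1 over a transcript of 10075 nt, which came to 0.67 TPM in replicate 2 and 0.50 TPM in replicate 1, and a log2 count ratio of 0.33 (0.048 to 0.62). Top2a, the topoisomerase that untangles sister chromatids, had 1.54 TPM in replicate 2 and 1.47 TPM in replicate 1, while its 91 and 175 fragments in that order gave a log2 ratio of -0.53 (-0.92 to -0.16). Short processed transcripts held the larger part of the Top2a value, and the coding Top2a-201 had 0.44 TPM in replicate 2 and 0.71 TPM in replicate 1. Kif11 and Kif20a, kinesins of spindle bipolarity and cytokinesis, and Tpx2, the spindle partner of Aurka, were at or below 1 TPM in both libraries. Of these, Kif11 had 66 fragments in replicate 2 and 161 in replicate 1, a log2 ratio of -0.88 (-1.31 to -0.45). Its difference in log2(TPM + 1) was -0.30, and became 0.32 with the GC trend removed, at a GC content of 41.7%. The pseudocount of 1 holds that difference near 0 at this level, and with a pseudocount of 0.1 it was -0.67. The turn therefore says nothing of the count ratio, which was not corrected for GC content. The checkpoint kinase Bub1 had 13 fragments in replicate 2 and 18 in replicate 1, while its relative Bub1b, the BubR1 gene, had 177 and 233. The kinetochore genes Cenpe and Cenpf had 21 and 12 fragments in replicate 2 and 24 and 22 in replicate 1. The intervals of Bub1, Bub1b, Cenpe and Cenpf all took in 0, so no difference was detectable at these counts. In Cenpf, about 2 fragments assigned to a 358 nt transcript made up 93.4% of the gene's TPM in replicate 2 and 86.5% in replicate 1, and the 11130 nt coding transcript stood at 0.03 and 0.04 TPM.

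Among the inhibitors of the cyclin-dependent kinases, Cdkn1a and Cdkn2c stood well above most of the genes of S phase and mitosis in both libraries. Cdkn1b did so in replicate 2, whereas in replicate 1 it lay below Pcna, Mcm7, Mcm6 and Ube2c. Cdkn1b, the p27 gene, had 30.6 TPM in replicate 2 and 10.8 TPM in replicate 1, with 2266 and 1349 fragments and a log2 ratio of 1.16 (1.06 to 1.26). Most of this was in Cdkn1b-201, with 27.4 TPM in replicate 2 and 7.13 TPM in replicate 1. Cdkn1a, the p53 target p21, had 30.6 TPM in replicate 2 and 41.7 TPM in replicate 1 and a log2 count ratio of -0.68 (-0.77 to -0.59). Cdkn1b was thus called higher and Cdkn1a was lower in replicate 2, beyond counting error in each case. Cdkn2c, the p18 gene, changed its isoform more than its fragments: the 1106 nt Cdkn2c-201 took 20.6% of the gene in replicate 2 and 87.1% in replicate 1, and the 2471 nt Cdkn2c-202 took 79.4% and 12.9%. Its TPM was 31.2 in replicate 2 and 42.4 in replicate 1, whereas its scaled fragment count was higher in replicate 2, by 0.36 (0.27 to 0.45).

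**Figure D3:**
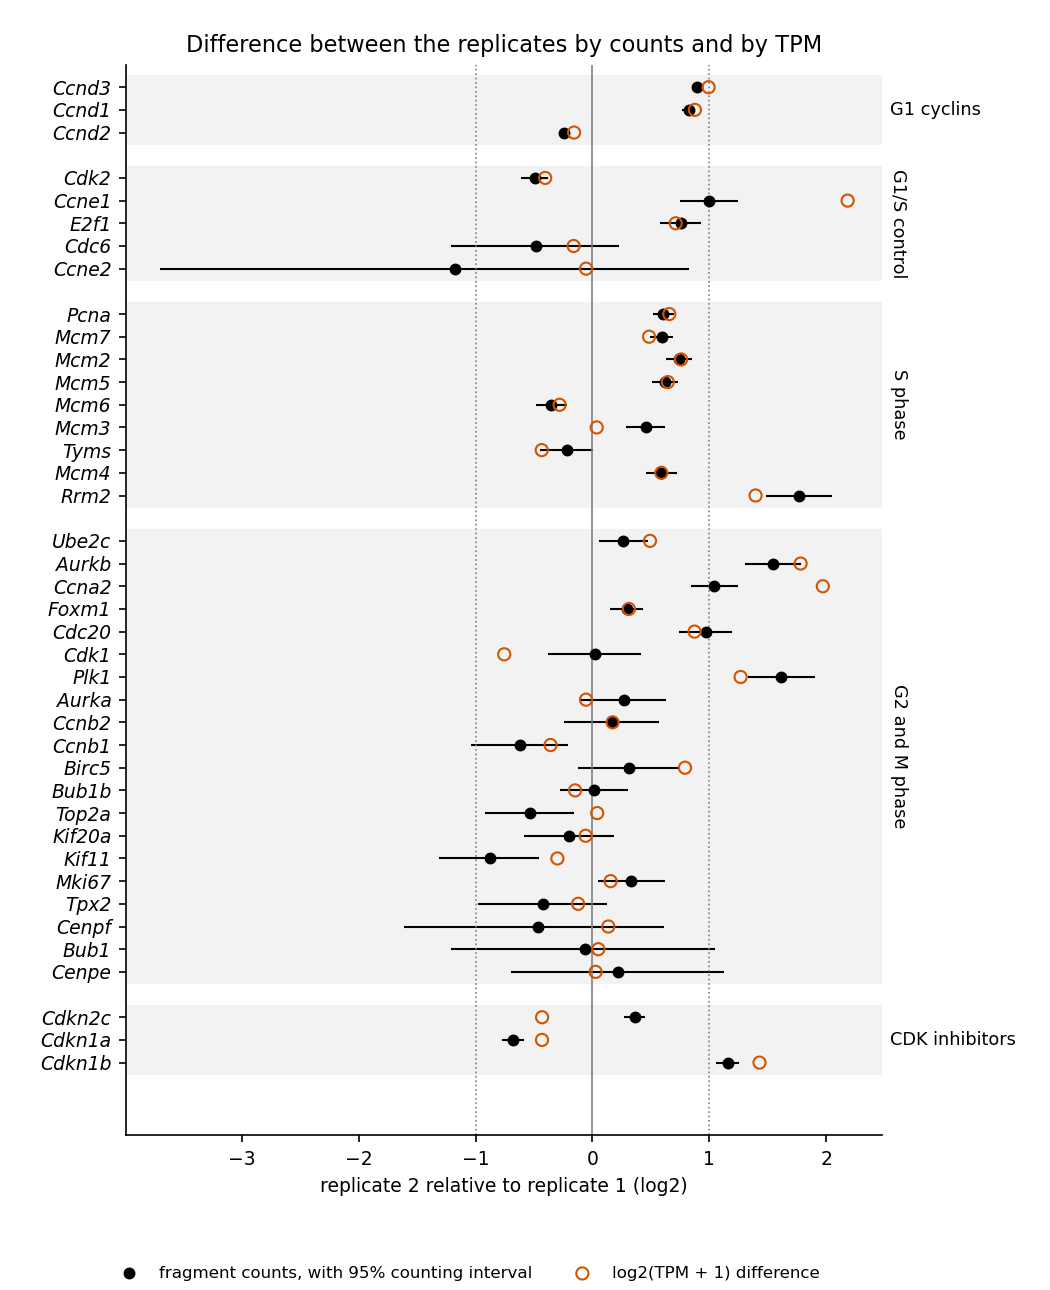
Log2 difference of replicate 2 relative to replicate 1 for each of the 40 genes, by role; filled points are fragment counts scaled to library totals with 95% counting intervals, open circles are differences in log2(TPM + 1), and dotted lines mark 2-fold. Rrm2, Aurkb, Plk1 and Cdkn1b have intervals wholly right of the 2-fold line, and Ccne1 and Ccna2, at more than 100 fragments in each library, lie at about 1 by counts and about 2 by TPM.

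Over all 31 genes with a mean of at least 1 TPM, 4 had count intervals wholly beyond 2-fold in favour of replicate 2 (12.9%), against a background of 8.73% of 14510 genes at that level. They were Rrm2, Aurkb, Plk1 and Cdkn1b. None was so called in favour of replicate 1, against a background of 9.43%. By the authors' own TPM intervals, 18 genes (58.1%) lay apart and higher in replicate 2 and 4 (12.9%) apart and higher in replicate 1, against 40.6% and 33.3% of all genes at that level. Those apart and higher in replicate 1 were Ccnd2, Cdk2, Cdkn1a and Cdkn2c, and Kif11, under 1 TPM, was a further one. The TPM was higher in replicate 2 for 21 of the 31 (67.7%), against 52.4%. Over 9 ways of scaling and smoothing the values, 20 of the 40 genes were higher in replicate 2 every time, 4 were higher in replicate 1 every time (Ccnd2, Cdk2, Tyms and Cdkn1a), and 16 took both directions. These 16 were Ccne2, Cdc6, Mcm3, Mcm6, Cdkn2c and 11 genes of G2 and M phase, namely Top2a, Ccnb1, Ccnb2, Cdk1, Bub1, Bub1b, Aurka, Tpx2, Cenpf, Kif11 and Kif20a. The same count was not made over all genes, so these numbers have no background and show no lean particular to the 40. Among the 20, Cenpe came as near 0 as 0.0068. Taking each gene's protein-coding transcript with the most fragments was not among the 9 ways, and there Ccne1, Birc5 and Tyms took the opposite direction. The count interval of Tyms took in 0.

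The median S phase gene was higher in replicate 2 by 0.59 on the log2(TPM + 1) scale, with 7 of 9 higher, and the median G2 and M phase gene by 0.09, with 13 of 20 higher. The median over all 14510 genes was 0.05. By counts the medians were 0.59 for S phase, 0.19 for G2 and M phase and -0.06 for all genes. The pseudocount of 1 compresses the differences of low genes, and the 13 G2 and M phase genes with a mean of at least 1 TPM had a median of 0.31. Genes rich in GC were higher in replicate 2 across the whole table: among 10 equal classes by GC content, the median difference was -0.64 in the lowest class and 0.95 in the highest. S phase genes had a median GC content of 50.2%, G2 and M phase genes 48.9% and all genes 51.4%. With that trend removed, the medians were 0.51 for S phase and 0.41 for G2 and M phase, with 7 of 9 and 18 of 20 higher in replicate 2. Of genes with a mean of at least 1 TPM, 49.9% were higher, whereas the 20 include genes under that level. Genes under 1 TPM take the full correction although the pseudocount holds their own difference near 0. The distance between the 2 sets in this measure therefore depended on how GC content and the genes under 1 TPM were treated. The part of each in it was not tested further.

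**Figure D4:**
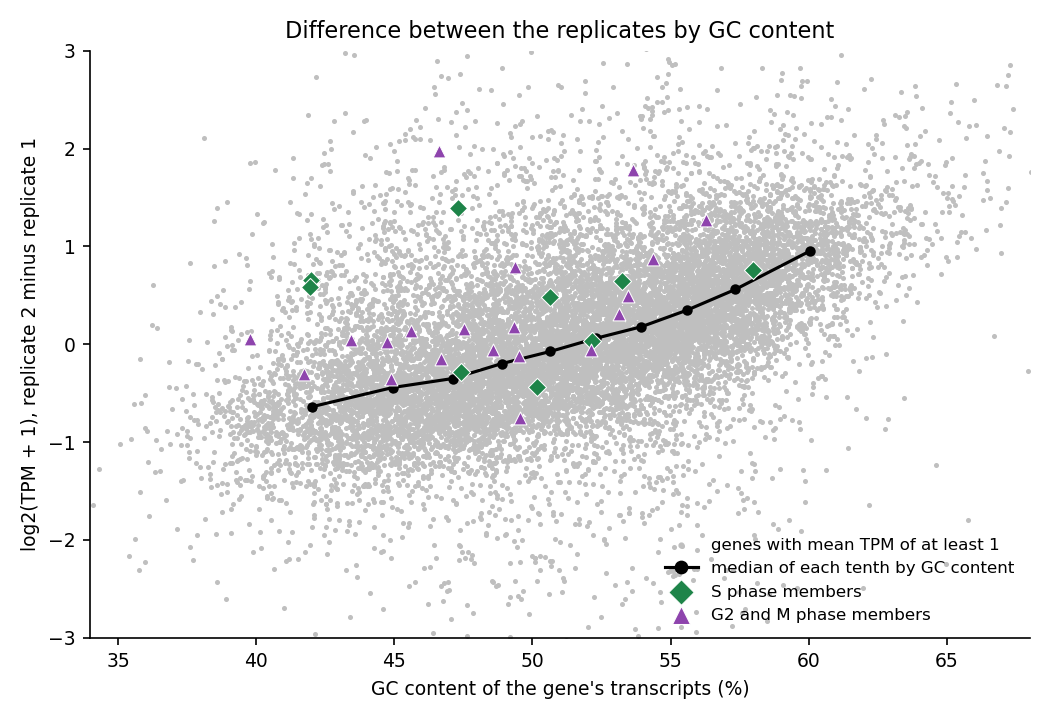
Difference in log2(TPM + 1), replicate 2 minus replicate 1, against GC content of each gene's transcripts for S phase genes (diamonds), G2 and M phase genes (triangles) and all genes with a mean of at least 1 TPM (grey dots), with the median of each of 10 equal GC classes as a line. The line climbs from -0.64 to 0.95, and Pcna and Mcm4, at 42.0% GC, lie far above it.

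The values also depended on which transcripts were counted. The 40 genes had 168 transcripts, 31 genes had more than 1, and the transcript with the largest share differed between the libraries in 11. Replacing each gene by its protein-coding transcript with the most fragments changed the direction of the TPM difference in 12 of 40 genes, among them Ccne1, Tyms, Cdk1, Birc5, Top2a and Cdkn2c. For 18 genes that transcript held over 90% of the fragments in both libraries. Other coding transcripts of a gene were left out by this choice. Among those left out were Birc5-201, at 2.31 TPM in replicate 2, and Cdkn2c-201, at 87.1% of its gene in replicate 1. On these main coding transcripts, the median S phase gene had 9.44 TPM in replicate 2 and 8.43 TPM in replicate 1, and the median G2 and M phase gene 1.30 and 1.17 TPM. The median differences were then 0.69 for S phase, with 8 of 9 higher in replicate 2, and 0.17 for G2 and M phase, with 14 of 20 higher. Only 10 of the 20 G2 and M phase genes had their main coding transcript at 1 TPM or more in each library.

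**Figure D5:**
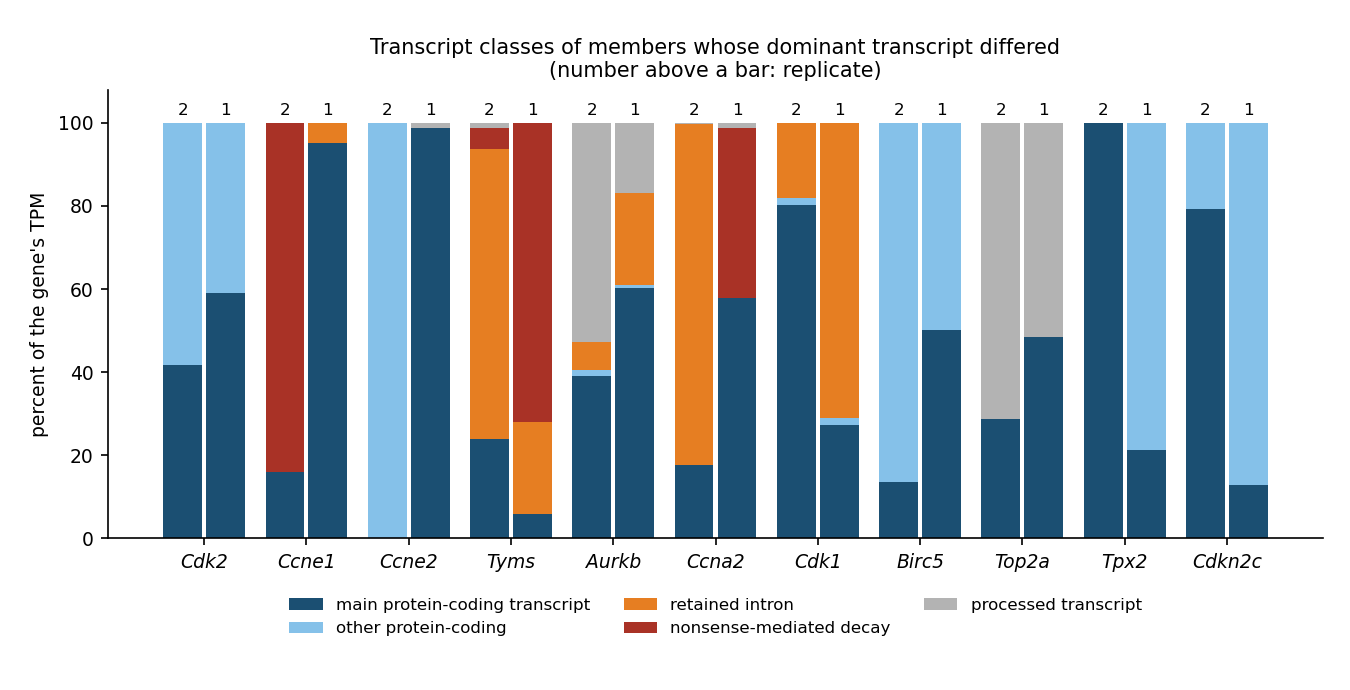
Percent of each gene's TPM in its main protein-coding transcript, other protein-coding transcripts and non-coding classes, for the 11 genes whose dominant transcript differed, with replicate 2 left of replicate 1. Ccna2-202 (retained intron) takes 82.0% and Ccne1-202 (nonsense-mediated decay) 83.95% in replicate 2, and both are at 0% in replicate 1; Ccne2 rests on 3 and 9 fragments.

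Other genes of the same pathways, outside the 40, are given for comparison. The counts of called genes in these lists are small and stand against the same background of 8.73% higher in replicate 2 and 9.43% higher in replicate 1. Of 33 further S phase genes, 22 had a mean of at least 1 TPM, 3 were called higher in replicate 2 and 0 in replicate 1, with a median difference of -0.08. The 3 were Usp1, a deubiquitinase of PCNA and FANCD2, Slbp, the histone mRNA binding protein, and the chromatin ATPase Atad2. Slbp had 40.2 TPM in replicate 2 and 11.2 TPM in replicate 1. Rfc2, a clamp loader subunit and among the highest of that list, had 20.6 TPM in replicate 2 and 20.9 TPM in replicate 1. By scaled counts, 12 of the 33 were higher in replicate 2, against 47.3% of the 14510 genes. The direction of this median turned with the GC trend removed, to 0.21, with 24 of 33 higher in replicate 2. The background there was 49.9% of genes with a mean of at least 1 TPM, whereas the 33 include genes under that level. Such genes take the full correction although the pseudocount holds their own difference near 0.

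Of 40 further G2 and M phase genes, 23 had a mean of at least 1 TPM, 3 were called higher in replicate 2 and 1 in replicate 1, with a median of 0.10. Cdca8, the borealin gene and a partner of Aurkb, was among those higher in replicate 2, with a log2 count ratio of 1.58 (1.24 to 1.93), as were the chromatin protein gene Hmgb2 and the condensin subunit Smc4. Cbx5, the heterochromatin protein HP1 alpha gene, was the one higher in replicate 1, with a log2 count ratio of -1.39. The highest genes of the list were Tubb4b, Jpt1 and Hjurp, and Tubb4b had 281 TPM in replicate 2 and 272 TPM in replicate 1.

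Of 17 genes that prepare origins, 11 had a mean of at least 1 TPM, 1 was called higher in replicate 2 and 2 in replicate 1, too few to set apart from the background. With the GC trend removed, 14 of the 17 were higher in replicate 2, against 49.9% of genes with a mean of at least 1 TPM. Without that removal, 8 of the 17 were higher by TPM and 6 by scaled counts, against 52.4% and 47.3%. Genes of this list under 1 TPM take the full correction although the pseudocount holds their own difference near 0. Cdt1, which loads MCM2–7 together with Cdc6, had 37.6 TPM in replicate 2 and 10.6 TPM in replicate 1, a log2 count ratio of 1.74 (1.63 to 1.85). The origin recognition subunits Orc3 and Orc4 had log2 count ratios of -1.67 and -1.59, and the TPM difference of Orc4 turned to 0.19 with the GC trend removed. Cdc6 itself had 0.27 TPM in replicate 2 and 0.42 TPM in replicate 1, far below its partner. Mcmbp, which binds the MCM complex, had 36.4 TPM in replicate 2 and 25.3 TPM in replicate 1.

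Repressors of the E2F programme were expressed throughout. E2f4, the E2F of the repressive DREAM complex, had 129 TPM in replicate 2 and 94.8 TPM in replicate 1, and its DREAM partner Lin37 had 36.8 and 27.6 TPM. Rb1, the retinoblastoma gene, had 4.75 TPM in replicate 2 and 10.3 TPM in replicate 1, a log2 count ratio of -1.31. Of 15 genes of this list with a mean of at least 1 TPM, 1 was called higher in replicate 2 (E2f2) and 3 in replicate 1 (Rb1, Lin9 and Lin52). Tfdp1, the dimer partner of the E2Fs, had 19.9 TPM in replicate 2 and 27.6 TPM in replicate 1.

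Among other cyclins and kinases, 12 of 14 had a mean of at least 1 TPM and 1 was called, Ccng1, a p53 target with a log2 count ratio of -1.53. Cdk4, the partner of the D-type cyclins, had 124 TPM in replicate 2 and 140 TPM in replicate 1 and a log2 count ratio of -0.0042 (-0.067 to 0.058). Ccni and Cdk9, which has a role in transcription, were the other high members of that list. Of 5 further inhibitors, 4 had a mean of at least 1 TPM, and Cdkn2a, Cdkn2b and Cdkn1c were called higher in replicate 2, with log2 count ratios of 2.11, 1.92 and 1.18. Cdkn2d, at 48.1 TPM in replicate 2 and 21.7 TPM in replicate 1, was the highest of that list and missed the call. These 5 inhibitors had a median GC content of 57.3%, and their median TPM difference fell from 1.21 to 0.56 with the GC trend removed. Of 13 checkpoint genes with a mean of at least 1 TPM, 2 were called higher in replicate 2, the CDK1-inhibiting kinases Wee1 and Pkmyt1, with log2 count ratios of 1.65 and 1.24. Trp53, Fzr1 and Bub3, the highest of that list, were not called.

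Lymphoid and erythroid precursors are known to divide, and markers of blood cells are given beside the counts above. Cd79a, a B cell receptor chain, had 380 TPM in replicate 2 and 169 TPM in replicate 1, and Tcf7, a T cell factor, 176 and 62.3 TPM. The 9 germinal centre B cell genes summed to 70.5 TPM in replicate 2 and 63.4 TPM in replicate 1, with S1pr2 and Bcl6 the highest and 4 of 9 at a mean of at least 1 TPM. Lymphoid precursor genes, led by Dntt and Rag1, summed to 0.42 TPM in replicate 2 and 0.77 TPM in replicate 1, and 2 of 4 were at or under 3 fragments in both libraries. Erythroid precursor genes summed to 28.6 TPM in replicate 2 and 24.5 TPM in replicate 1. The part of any of these cells in the levels of the 40 genes was not tested.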

How the data were processed

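Expected counts, TPM and FPKM per gene and transcript were used as deposited by the authors, one table of each kind per library. Per the file headers, the tables also hold posterior mean TPM, the bounds of an interval of TPM (here called a signal, of unstated level) and the isoform percent, the share of a gene's TPM held by each transcript, also deposited by the authors. Per the text notes beside the tables, assembly and annotation were mm10 and GENCODE M4. No aligner or quantifier is named there (not given in the sources used here). A posterior standard deviation of the counts, a score deposited by the authors, was read and supports no value here.

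GENCODE M21, a later release for that build, supplied symbols, transcript classes, positions and GC content and named 42462 of 43346 genes. Number-named entries (26248) and spike-ins were left out of totals. Expected counts were rounded to whole fragments for an exact 95% interval (Clopper-Pearson) of the ratio of the 2 libraries, scaled to totals of 42400470 in replicate 2 and 56323489 in replicate 1. A gene was called where that interval lay wholly beyond 2-fold and its mean TPM was at least 1. Differences in TPM are of log2(TPM + 1). A gene at 3 fragments or fewer in a library was taken as at the floor there. The GC trend was the median difference in 20 bins. Promoter sequences are from RefSeq (GRCm38.p6). The 40 genes, their roles and all lists were chosen with earlier results of these data known. All 40 are described; of each other pathway list the 3 highest by mean TPM and any called gene, and of each cell type list the 2 highest, were eligible to be named. With 1 group of 2 libraries no test between conditions exists, and the spread between the libraries holds biological and technical parts together. Python 3.11.15 with SciPy 1.17.1, were used, and scaling factors came from edgeR 4.0.16 and DESeq2 1.42.0 under R 4.3.3.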

Additional observations from a re-analysis of the deposited data

How the results depend on the processing

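The median S phase difference stayed between 0.35 and 0.72 under every scaling, pseudocount, filter and unit tried, against 0.59 as reported. The median G2 and M phase difference, 0.09 as reported, was 0.19 with counts scaled by total, 0.26 with TMM factors, 0.32 with DESeq2 size factors, 0.41 with the GC trend removed, 0.011 with mitochondrial and muscle genes removed, 0.24 with a pseudocount of 0.1, 0.31 where mean TPM was 1 or more and 0.17 on the main protein-coding transcripts. That removal moved the median of all genes to -0.20. The 4 genes called higher in replicate 2 became 10 at a 1.5-fold threshold and 0 at a 3-fold threshold, and 3 with mitochondrial and muscle genes removed, when Cdkn1b was lost; the 0 called higher in replicate 1 became 1 at 1.5-fold. The distance between S phase and G2 and M phase medians, 1.93, was 1.68 with Ccne1, Ccne2, Cdc6 and E2f1 added to S phase, 1.82 in FPKM, 1.89 with posterior mean TPM, 2.09 on main protein-coding transcripts, and 1.78 to 1.79 with either library left out. Posterior means and coding transcripts were tried after seeing the data. No paired analysis was possible because both libraries belong to 1 group. Genes under about 30 fragments, such as Ccne2, Bub1, Cenpe, Cenpf and Cdc6, are limited by depth.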
